A study of Mus musculus with 18 samples.

Results

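Kctd16, Ttll11, Tpte, Wdr64 and Gm37596 are 5 of 54446 counted genes, and were chosen for having far more nascent RNA in Tet2-KO than in wildtype (WT) mouse embryonic stem (mES) cells. They head a ranking by log2 fold change per ERCC read, averaged over labelling times, of the 8160 protein-coding genes that had a mean log2 CPM (counts per 1000000 gene reads) over 2, passed an adjusted p of 0.05 for that contrast and had genotypes that did not overlap at any labelling time. The difference between the genotypes therefore chose them, and it is described here without a test. Wdr64, the last of the 5, stood at a log2 fold change of 4.71 per ERCC read. Just outside were Xkr9 at 4.70, Gm10260 at 4.67 and, farther off, Nckap5 at 4.20. The minimum level also shaped the set, since 18 protein-coding genes with enough reads to be tested had a fold change at least as high as that of Wdr64 and 13 of these had a mean log2 CPM of at most 2.

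Each library holds RNA made while mES cells took up 5-ethynyl uridine (EU, 1 mM), a uridine analogue that enters RNA as it is made and lets it be tagged with biotin and pulled down. WT and Tet2-/- mES cells, with no second line of either genotype and no other allele named, were labelled for 10, 20 or 40 min, with 3 replicate dishes in each of the 6 groups, so the 18 libraries are replicates of culture and not of independent lines. All were grown with serum, LIF and inhibitors of GSK3 and MEK, and were passaged on gelatin to remove feeder cells. Tet2 encodes a dioxygenase that oxidizes 5-methylcytosine in DNA and RNA. Spike-in RNA of known composition (ERCC) had been added in proportion to total RNA, which gives a calibrated scale (reads per 1000 ERCC reads) beside the share of the library (reads per 1000000 gene reads, CPM). Gene reads numbered between 17931614 and 23069143 per library and ERCC reads between 44162 and 512186, so a gene with few reads is limited by counting error, whichever scale is used.

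Some properties of the libraries as a whole touch the values below. Tet2 itself still had 9730 to 13011 reads in the libraries labelled Tet2-KO against 13117 to 17092 in WT. Counting whole genes would miss the removal of single exons. The median tested gene was 0.70 higher on the log2 scale in Tet2-KO per ERCC read and 0.04 lower as a share (log2 fold change -0.04), so differences on the share scale leave out a factor common to most genes. The 8 markers of pluripotency summed to 2139 to 2289 CPM in WT and 1492 to 1663 in Tet2-KO. Of 7 tested, 1 was called higher and 6 lower as a share. Much of the fall lay in Zfp42, at 520 to 568 CPM in WT and 103 to 122 in Tet2-KO. Tdgf1 (-0.78) and Klf4 (-0.64) were also lower, Nanog (-0.12) and Esrrb (-0.06) moved little, and Pou5f1 was higher (0.16). Sox2 was at 0 in every library of both genotypes. A count of 0 does not show that the RNA was absent, since ambiguous and not uniquely aligned reads were left out. The 4 Y-linked genes examined summed to 45.8 to 58.2 CPM in WT and to 0.781 to 2.28 in Tet2-KO, so the lines differed in more than the label states. For the 5 genes, the loss of Tet2 and other differences between the lines cannot be told apart.

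The genes lie on 5 different chromosomes. In the mm10 build (GRCm38), Kctd16 spans chr18:40256962-40531630 on the plus strand, with 10 separate exon blocks in the GENCODE M21 annotation. Ttll11 spans chr2:35751241-35979913 on the minus strand with 13 exon blocks, and Tpte spans chr8:22283441-22371418 on the plus strand with 29. Wdr64 spans chr1:175698593-175815734 on the plus strand with 30 exon blocks. Gm37596 is short and unspliced, a single exon of 1021 bases at chr3:93692050-93693070 on the minus strand. The only annotated genes overlapping a member were 3 short genes within Ttll11 and 1 within Wdr64, with at most 11 reads each in the 9 Tet2-KO libraries together, and none was tested.

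Of the 5 genes, 4 have a named product. Kctd16 encodes an auxiliary subunit of the GABA-B receptor, the G-protein-coupled receptor for the inhibitory transmitter GABA, and is best known in neurons. Ttll11 encodes a tubulin tyrosine ligase-like enzyme that adds glutamate chains to tubulin, a mark of stable microtubules such as those of cilia. Tpte encodes a membrane phosphatase with a voltage sensor domain, best known in testis. Wdr64 encodes a protein of WD40 repeats, which fold into propellers that hold protein complexes together. Gm37596 is a predicted gene without a given name, and its transcript matches the Tdpoz genes, relatives of the ubiquitin ligase adaptor Spop that carry TD and POZ domains.

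For Tpte the 250 bases before its RefSeq start (GRCm38.p6, chr8:22283191-22283440, plus strand) are shown, the only member with such a window in the RefSeq table used, because CG pairs are the main sites of the cytosine methylation that Tet2 acts on in DNA, and this window has none. Of 32851 windows of 250 bases before mouse gene starts in the same RefSeq set, 7.87% had no CG, and the median was 6. No capitals are used, since there is no CG to mark.
Tpte: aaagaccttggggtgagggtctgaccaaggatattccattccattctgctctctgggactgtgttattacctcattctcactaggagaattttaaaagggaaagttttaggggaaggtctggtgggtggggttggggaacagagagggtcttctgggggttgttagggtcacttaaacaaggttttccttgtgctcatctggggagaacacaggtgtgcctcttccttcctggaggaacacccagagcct

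Low CG content at the start of the annotated transcript used was shared by 4 of the 5 genes. In the first 300 bases of a single annotated transcript per gene, CG occurred 6 times in Kctd16, 7 in Tpte, 5 in Wdr64 and 7 in Gm37596. Other transcripts of the spliced genes were not examined, and the start used in these cells was not determined. Across 15094 tested protein-coding genes the median was 18 and the lower quartile 10, and 17.8% of genes had at most 7, the highest count of the 4. Ttll11 was the exception, with 46 CG, more than 97.1% of those genes. These counts describe the sequence only and methylation was not measured in these libraries.

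Gm37596 belongs to a cluster of near copies, which matters for its read count. A stretch of 120 bases is shown from Gm37596 (chr3:93692396-93692515, minus strand, bases 556 to 675 of its transcript) beside the same stretch of Tdpoz5 (chr3:93960638-93960757, minus strand, GRCm38), with the 4 positions that differ in capitals.
Gm37596: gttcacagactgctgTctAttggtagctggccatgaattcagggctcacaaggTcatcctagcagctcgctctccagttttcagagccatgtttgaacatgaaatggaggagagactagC
Tdpoz5: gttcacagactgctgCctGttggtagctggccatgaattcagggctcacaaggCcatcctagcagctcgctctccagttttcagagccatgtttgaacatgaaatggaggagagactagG

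Over 1021 aligned bases these transcripts differ at 11 positions (98.9% identity), and Gm10697 has the same transcript sequence as Tdpoz5. Reads that fall between the differing positions match several loci. Reads deposited as not uniquely aligned name no gene and were left out, so any from these loci are missing from the counts. How many came from these loci is not given in the sources used here. Tdpoz5 had 4 reads in the 9 Tet2-KO libraries together and none in WT, and Gm10697 had 0 in both, against 1563 and 72 for Gm37596. A read within the sequence that Tdpoz5 and Gm10697 share matches both loci, so their low counts do not show that they made no RNA. In all, 24 genes had at least 80% identity to Gm37596 over at least 900 bases, 21 of them on chromosome 3. Of these, 5 had more reads in Tet2-KO than in WT, 12 had fewer, 6 had none and 1 had equal reads. The counts compared are raw sums over 9 libraries per genotype, some of only a few reads. Only 2 of the 24 genes were tested. The value of Gm37596 is therefore uncertain, and how many of its reads were left out or exchanged with its copies was not tested. This family was picked after the values were seen.

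Kctd16 had few reads in WT and many in Tet2-KO at every labelling time. WT libraries held 59, 60 and 68 reads at 10 min, 35, 28 and 50 at 20 min, and 21, 29 and 40 at 40 min. Tet2-KO libraries held 817, 652 and 718 reads at 10 min, 695, 673 and 707 at 20 min, and 840, 913 and 747 at 40 min. The lowest Tet2-KO library, with 652 reads, exceeded the highest WT library, with 68. In these bulk cultures, more cells with the RNA and more RNA in each cell cannot be told apart, for this gene and the others. As a share, Kctd16 stood at 2.81 ± 0.250 (SD, n = 3) CPM in WT and 36.7 ± 0.821 in Tet2-KO at 10 min, at 1.86 ± 0.431 against 36.0 ± 1.02 at 20 min and at 1.42 ± 0.516 against 43.7 ± 1.82 at 40 min. Averaged over times the log2 fold change was 5.04 ± 0.09 (SE) per ERCC read and 4.30 ± 0.07 as a share.

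Ttll11 was the most abundant of the 5 in both genotypes. WT libraries held 132, 103 and 91 reads at 10 min, 109, 125 and 163 at 20 min, and 88, 87 and 80 at 40 min. Tet2-KO libraries held 2634, 1870 and 2100 reads at 10 min, 1743, 1743 and 1781 at 20 min, and 1430, 1549 and 1346 at 40 min. The lowest Tet2-KO library, with 1346 reads, exceeded the highest WT library, with 163. Within Tet2-KO each 10 min library was above each 40 min library in reads. Its share was 4.90 ± 0.916 against 110 ± 6.69 CPM (WT against Tet2-KO, SD, n = 3) at 10 min, 6.58 ± 1.02 against 91.3 ± 1.03 at 20 min and 3.99 ± 0.238 against 75.7 ± 0.803 at 40 min. The averaged log2 fold change was 4.91 ± 0.07 (SE) per ERCC read and 4.18 ± 0.05 as a share.

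Tpte, the phosphatase gene, had few reads in WT and an even level in Tet2-KO. WT libraries held 23, 25 and 8 reads at 10 min, 19, 31 and 42 at 20 min, and 23, 19 and 8 at 40 min. Tet2-KO libraries held 344, 306 and 335, then 326, 333 and 309, then 336, 325 and 299 reads at the same times. The 9 Tet2-KO libraries lay between 15.3 and 17.7 CPM, whereas the 9 WT libraries spread from 0.365 to 1.96. The averaged log2 fold change was 4.79 ± 0.12 (SE) per ERCC read and 4.05 ± 0.12 as a share.

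Wdr64 followed the same form at a slightly lower share. WT libraries held 18, 25 and 33 reads at 10 min, 22, 16 and 15 at 20 min, and 16, 16 and 15 at 40 min. Tet2-KO libraries held 270, 270 and 271, then 289, 239 and 276, then 286, 273 and 315 reads. Its share ranged from 0.694 to 1.51 CPM in WT and from 12.0 to 17.6 in Tet2-KO, without overlap. The averaged log2 fold change was 4.71 ± 0.12 (SE) per ERCC read and 3.97 ± 0.11 as a share.

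Gm37596 had the fewest reads and the highest fold change. WT libraries held 12, 12 and 6 reads at 10 min, 14, 6 and 10 at 20 min, and 2, 0 and 10 at 40 min. Tet2-KO libraries held 133, 137 and 179, then 165, 191 and 187, then 189, 213 and 169 reads. The lowest Tet2-KO library was far above the highest WT library, but the WT values were small enough for single reads to matter. The WT library at 0 reads allows up to 3 reads, or 0.147 CPM, a limit that covers counting error only. The averaged log2 fold change was 5.39 ± 0.16 (SE) per ERCC read and 4.66 ± 0.18 as a share, and the share value became 5.29 without the third WT library at 40 min, the one with 10 reads.

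**Figure D1:**
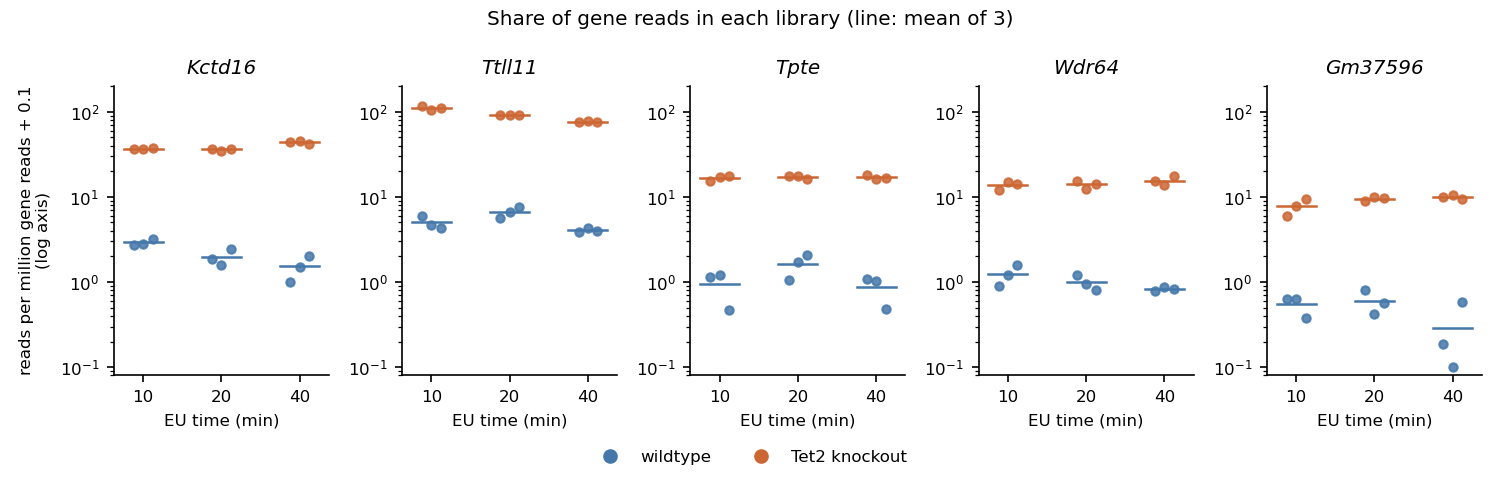
CPM plus 0.1 (log axis) of the 5 genes in each of the 18 libraries by EU time, with WT in blue, Tet2-KO in orange and a line at the mean of 3 libraries. In each panel all 9 Tet2-KO libraries lie above all 9 WT libraries, and Ttll11 declines across EU times in Tet2-KO.

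Per kilobase of annotated exon, the 5 genes stood in the lower part of the range in WT and in its middle or upper part in Tet2-KO. The rule asked for a minimum mean level and took the largest fold changes, so this placing follows from the choice and is described only. The order in Tet2-KO was Ttll11 at 23.0 CPM per kilobase, Kctd16 at 11.2, Gm37596 at 8.82, Tpte at 6.07 and Wdr64 at 3.59. Over the 9 libraries, Kctd16 overlapped Gm37596 and Gm37596 overlapped Tpte in this order, while the other neighbours in it did not overlap. Among 15158 tested protein-coding genes, these levels placed Ttll11 at the 86.8th percentile in Tet2-KO and the 30.4th in WT, and Kctd16 at the 72.5th and 19.3rd. Wdr64 stood at the 49.2nd percentile in Tet2-KO and the 8.60th in WT. The percentiles were 59.5 and 13.9 for Tpte and 67.6 and 13.6 for Gm37596. The counted feature (exons or whole genes) is not given in the sources used here. A level per exon length would be too high for a gene with long introns if intronic reads were counted, which limits the comparison of the spliced genes with the unspliced Gm37596.

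Background counts over all genes were as follows. A gap between genotypes at all 3 labelling times in the upward direction was seen per ERCC read in 51.6% of tested genes, and as a share in 11.8% (1.56% and 13.9% had it downward). All 5 genes had it on both scales, per ERCC read by the rule and as a share from the same reads. An adjusted p under 0.05 in the upward direction was reached by 80.5% of 19910 tested genes per ERCC read, and by 24.6% as a share. The rule used that contrast, and nothing is read from any of these counts for the members.

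**Figure D2:**
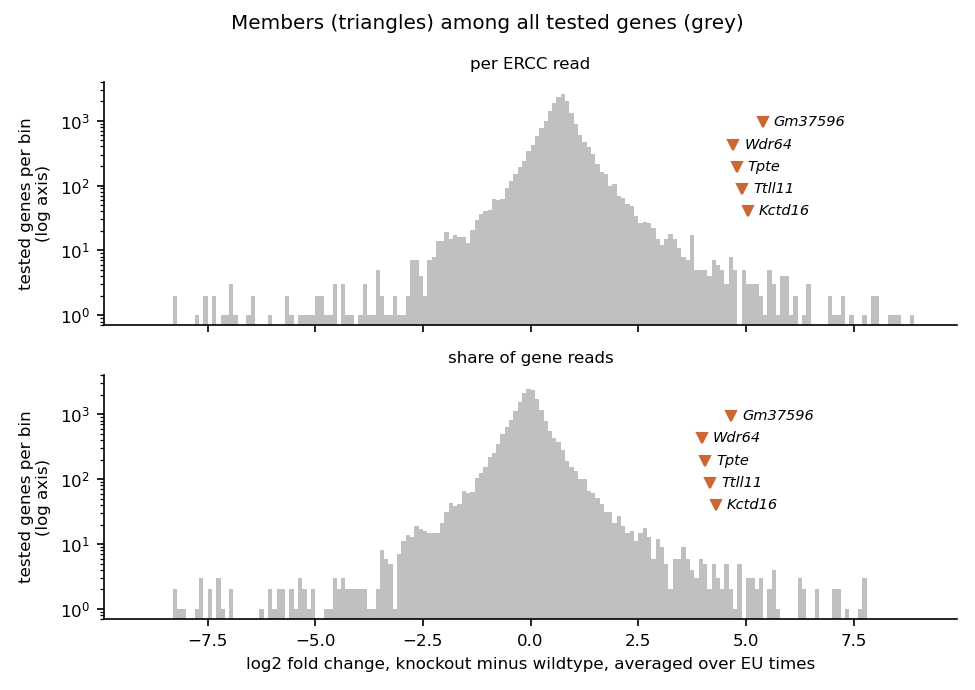
Number of the 19910 tested genes (log axis) by log2 fold change of Tet2-KO over WT averaged over EU times, per ERCC read above and as a share of gene reads below, with triangles at the 5 genes (their height has no meaning). The triangles lie between 4.71 and 5.39 per ERCC read and between 3.97 and 4.66 as a share, beyond the bulk of genes, and higher values per ERCC read belong to genes outside the ranking.

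The ratio of Tet2-KO to WT was large at each labelling time, with some spread. As a share, Kctd16 was 13.1-fold higher at 10 min, 19.3-fold at 20 min and 30.7-fold at 40 min. The ratios for Ttll11 were 22.5, 13.9 and 18.99, for Tpte 19.8, 11.05 and 21.8, and for Wdr64 12.0, 15.7 and 20.9. Gm37596 had ratios of 17.0, 18.9 and 52.3, the last over WT libraries with 2, 0 and 10 reads. As a share the ratio was higher at each later time for Kctd16, Wdr64 and Gm37596 and lowest at 20 min for Ttll11 and Tpte. Per ERCC read it was lowest at 20 min for Wdr64 (24.7, 21.9 and 33.7) and Gm37596 (34.2, 26.8 and 86.5) too. That of Kctd16 was 26.8, 27.2 and 49.4. The ranking used the average over times and not the change between them. Because the rule also asked for a gap at each time, the tests of that change are not fully independent of it.

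For Kctd16 the gap widened with labelling time. As a share, the log2 difference between Tet2-KO and WT was 1.25 ± 0.21 (SE) greater at 40 than at 10 min (adjusted p = 0.000136, quasi-likelihood test of edgeR, Benjamini-Hochberg adjusted over all tested genes), a change called in 5.89% of tested genes upward and 3.36% downward. Per ERCC read it was 0.90 ± 0.24 greater (adjusted p = 0.00375, edgeR with Benjamini-Hochberg adjustment), against a median of -0.29 over all genes and 0.552% called upward. Without the first WT library at 40 min the value per ERCC read was 0.64 (adjusted p = 0.0744, edgeR). For Ttll11 the gap per ERCC read changed by -0.59 ± 0.18 (adjusted p = 0.0127, edgeR), a direction called in 19.3% of genes. That call was lost without the third WT library at 10 min (-0.43, adjusted p = 0.111, edgeR) or the second at 40 min (-0.51, adjusted p = 0.0774, edgeR), and as a share the value was -0.24 ± 0.15 (adjusted p = 0.335, edgeR).

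The other 3 genes did not pass this test on either scale. As a share the change of the difference was 1.63 ± 0.60 for Gm37596 (adjusted p = 0.0864, edgeR with Benjamini-Hochberg adjustment), 0.80 ± 0.31 for Wdr64 (adjusted p = 0.108, edgeR) and 0.13 ± 0.37 for Tpte (adjusted p = 0.886, edgeR). Per ERCC read the values were 1.33, 0.47 and -0.19 (adjusted p = 0.0622, 0.336 and 0.711, edgeR). Gm37596 passed under DESeq2 with its own size factors in place of gene read totals (adjusted p = 0.0309). As a share it passed with no filter on low counts (adjusted p = 0.0478, edgeR). The same held without the third WT library at 40 min, where the value was 3.53 (adjusted p = 0.00315, edgeR). Per ERCC read it passed without that library (3.28, adjusted p = 0.00207, edgeR), without the third WT library at 10 min (1.64, adjusted p = 0.0305, edgeR) or without the third Tet2-KO library at 10 min (1.56, adjusted p = 0.0415, edgeR). As a share, Wdr64 passed without the first WT library at 10 min (0.999, adjusted p = 0.045, edgeR).

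Within each genotype the members also differed in how their share moved with labelling time. In Tet2-KO, Ttll11 fell by 0.54 ± 0.06 (SE) on the log2 scale between 10 and 40 min (adjusted p = 6.04e-09, quasi-likelihood test of edgeR, Benjamini-Hochberg adjusted), a direction called in 20.0% of genes. Kctd16 rose by 0.25 ± 0.09 (adjusted p = 0.0216, edgeR), a direction called in 16.5%. The call for Kctd16 was lost when any of 4 libraries was left out, the first or the second Tet2-KO library at 10 min or at 40 min, with adjusted p from 0.0568 to 0.0926 (edgeR). The values for Gm37596, Wdr64 and Tpte were 0.39, 0.16 and 0.02 (adjusted p = 0.135, 0.366 and 0.935, edgeR).

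In WT, Kctd16 alone passed, and in the other direction. It fell by 0.997 ± 0.193 (SE) on the log2 share scale (adjusted p = 7.14e-05, quasi-likelihood test of edgeR, Benjamini-Hochberg adjusted), against 29.5% of genes called lower and 16.1% called higher. The values for Wdr64, Ttll11, Tpte and Gm37596 were -0.64, -0.30, -0.11 and -1.24 (adjusted p = 0.0642, 0.0612, 0.817 and 0.0743, edgeR), all below 0 with wide errors. Of these, 3 passed when 1 WT library was left out. Wdr64 did so without the first library at 10 min (-0.83, adjusted p = 0.0213, edgeR), Ttll11 without the third at 10 min (-0.41, adjusted p = 0.0175, edgeR) or the first at 20 min (-0.30, adjusted p = 0.0486, edgeR), and Gm37596 without the third at 10 min (-1.49, adjusted p = 0.043, edgeR) or the third at 40 min (-3.13, adjusted p = 0.00116, edgeR).

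**Figure D3:**
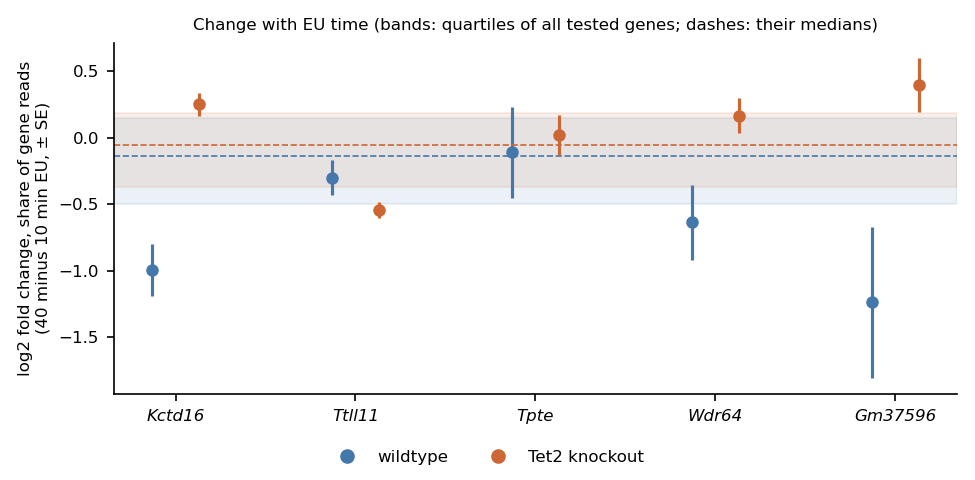
Log2 fold change of the share of gene reads from 10 to 40 min of EU (± SE from edgeR) for the 5 genes in WT (blue) and Tet2-KO (orange), with bands at the quartiles and dashes at the medians of all 19910 tested genes. Kctd16 lies at -0.997 in WT and 0.25 in Tet2-KO, whereas Ttll11 lies below 0 in both.

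Per ERCC read, where newly made RNA accumulates, all 5 genes rose from 10 to 40 min in both genotypes, as 94.7% of tested genes did in Tet2-KO and 96.7% in WT. A fall was called in 0.00502% and 0.01% of genes. In Tet2-KO the log2 increase ran from 1.51 for Ttll11 to 2.44 for Gm37596, around a median of 1.996 over all genes. In WT it ran from 1.11 for Gm37596 (adjusted p = 0.0399, edgeR with Benjamini-Hochberg adjustment) to 2.27 for Tpte, around a median of 2.26. The WT value for Gm37596 was -0.84 without the third library at 40 min (adjusted p = 0.373, edgeR), 0.80 without the third at 10 min (adjusted p = 0.137, edgeR), and lost its call with no filter on low counts (adjusted p = 0.0619, edgeR).

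A line fitted through the 9 libraries of a genotype gives an accumulation rate in reads per 1000 ERCC reads per min. In Tet2-KO the slope was 0.638 ± 0.0450 (SE) for Ttll11, 0.467 ± 0.0237 for Kctd16, 0.169 ± 0.0132 for Tpte, 0.161 ± 0.0155 for Wdr64 and 0.107 ± 0.00630 for Gm37596. The Tpte and Wdr64 slopes lay within 1 SE of each other. In WT the slopes were 0.0218 ± 0.00730 for Ttll11, 0.00685 ± 0.00211 for Kctd16, 0.00411 ± 0.00248 for Tpte and 0.00405 ± 0.000744 for Wdr64, and that for Gm37596, 0.000505 ± 0.00115, was below its error. The ratio of slopes was 68.1 for Kctd16, 29.3 for Ttll11, 41.2 for Tpte and 39.8 for Wdr64, while the WT slope of Gm37596 is too uncertain to give one. The WT line also fitted Tpte poorly, with 0.281 of the variance explained. Through the origin, the slopes of Kctd16 were 0.418 in Tet2-KO and 0.00990 in WT, a smaller ratio than with an intercept. The intercept of Ttll11 in Tet2-KO was 4.92 reads per 1000 ERCC reads and that of Kctd16 was -1.46.

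**Figure D4:**
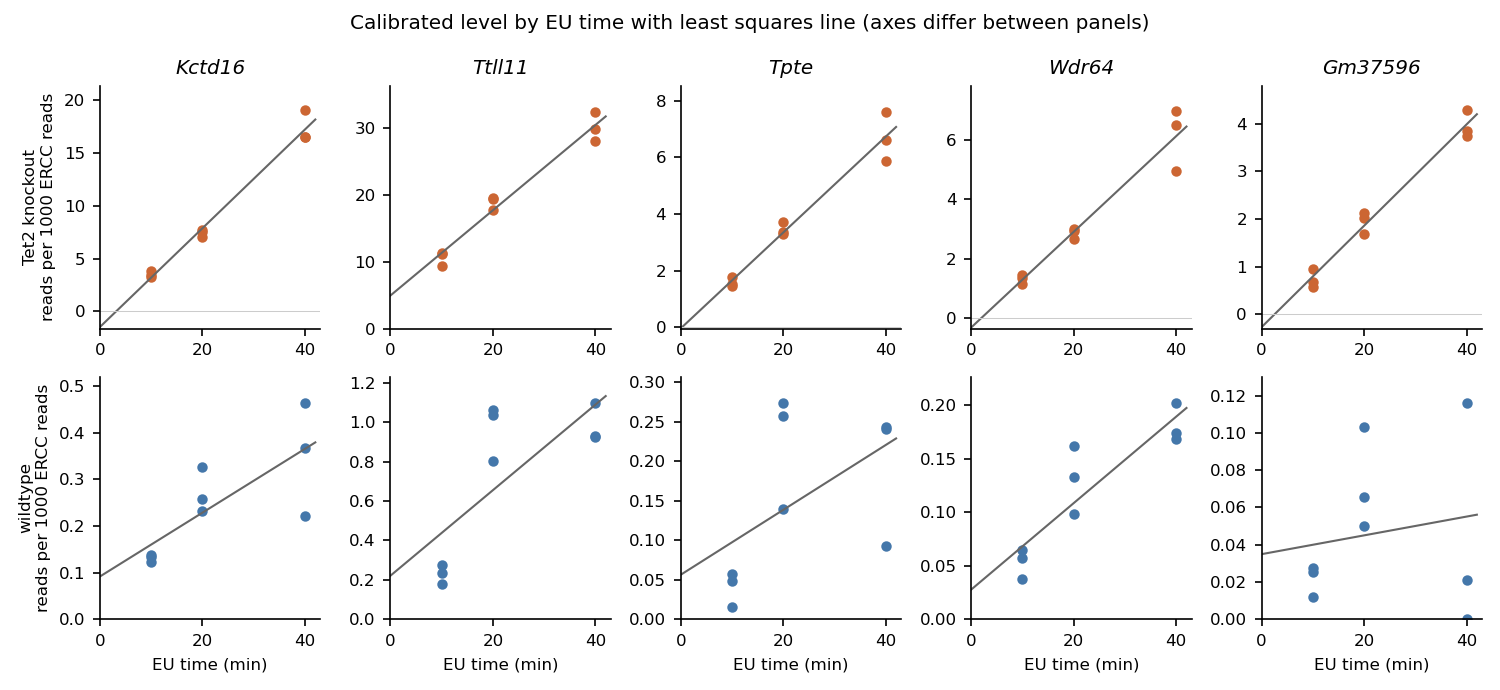
Reads per 1000 ERCC reads of the 5 genes against EU time (min) in the 9 Tet2-KO libraries (top, orange) and the 9 WT libraries (bottom, blue), with the least squares line and a separate vertical axis for each panel. Levels in Tet2-KO climb along the line in every panel, whereas in WT the points of Ttll11 and Tpte are higher at 20 min than the line and those of Gm37596 scatter.

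Genes beside the 5 members were divided in direction as a share. Of the 30 nearest tested genes, 3 on each side of each member, 8 were higher and 11 lower in Tet2-KO as a share of gene reads (edgeR's quasi-likelihood test), with a median log2 fold change of -0.04. Over all tested genes 24.6% were higher and 32.0% lower. Per ERCC read 27 of the 30 were higher and 1 was lower, where 80.5% and 4.15% of all genes were. Within 1 Mb of a member 92 genes were tested, 26 of them higher and 25 lower as a share.

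Kctd16 stands in a sparse stretch with 4 tested genes within 1 Mb. Yipf5, which encodes a membrane protein of the Golgi and ends 37.5 kb away, was 0.27 ± 0.05 (SE) higher on the log2 share scale (adjusted p = 4.62e-06, edgeR with Benjamini-Hochberg adjustment). On the same side, Nr3c1, the glucocorticoid receptor gene, was at -0.21 and Arhgap26 at -0.28, both called lower. The nearest tested gene on the other side, Prelid2, lies 1344 kb away and was at -0.81. It was followed by Sh3rf2 at -0.38, also called lower, and Plac8l1 at -0.10 (adjusted p = 0.655, edgeR).

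Ttll11 lies between Dab2ip, 20.2 kb away, and Ndufa8, 56.4 kb away. Dab2ip encodes a Ras GTPase-activating protein and was at -0.01 ± 0.02, and Ndufa8, a subunit of respiratory complex I, was at 0.02 ± 0.07, neither called (adjusted p = 0.767 and 0.860, edgeR with Benjamini-Hochberg adjustment). Ggta1 and Morn5 were not called either, at -0.01 and 0.17. The 2 called neighbours were the low-count genes Gm13446 at 0.94 and Gm43764 at 1.001, with 93 and 48 reads in the 9 WT libraries together. The call for Gm43764 was lost without the first Tet2-KO library at 20 min (0.84, adjusted p = 0.0717, edgeR) or the third at 40 min (0.88, adjusted p = 0.0525, edgeR). Farther off, 410 kb away, the processed pseudogene Gm13443 went from 15 reads in WT to 683 in Tet2-KO over 9 libraries each (5.69 ± 0.31). It was named after its value was seen.

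All 6 neighbours of Tpte lay between -0.44 and -0.02 on the log2 share scale. Slc25a15, the mitochondrial ornithine carrier gene, begins 4.13 kb beyond Tpte and was at -0.17 ± 0.05 (adjusted p = 0.00472, edgeR with Benjamini-Hochberg adjustment). Ckap2, Vps36 and Smim19 were also called lower, at -0.18, -0.13 and -0.44. Thsd1, 22.1 kb away on the other side, was at -0.02, and Mrps31 at -0.06, neither called.

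Opn3, an opsin gene 5.82 kb from Wdr64, was at -0.27 ± 0.15 (adjusted p = 0.115, edgeR with Benjamini-Hochberg adjustment), and Kmo and Fh1 on the same side were at -0.60 and -0.02, not called. On the other side Exo1, an exonuclease gene of DNA repair, was called lower at -0.22, whereas Pld5 was called higher at 0.35 and Gm36536, 614 kb away, at 2.36 ± 0.26 (adjusted p = 2.0e-09, edgeR). The call for Pld5 was lost in 6 of 18 fits that left out 1 library, without the second WT library at 10 or 40 min, the first WT library at 20 min, the third Tet2-KO library at 10 or 40 min or the first at 20 min (adjusted p from 0.053 to 0.0719, edgeR). Opn3 was called lower without the second WT library at 10 min (-0.35, adjusted p = 0.0276, edgeR) and Kmo without the first Tet2-KO library at 10 min (-0.94, adjusted p = 0.0178, edgeR).

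Gm37596 was the exception in having a close neighbour that was also far higher. Tdpoz1, 15.7 kb away and of the same family, had 241 reads in the 9 WT libraries together and 1502 in the 9 Tet2-KO libraries, a log2 share difference of 2.72 ± 0.13 (adjusted p = 1.30e-18, edgeR with Benjamini-Hochberg adjustment). Gm4778, another relative 571 kb away, went the other way, from 83 to 15 reads (-2.22 ± 0.48, adjusted p = 0.000184, edgeR). On the side of Tdpoz1, S100a10 was at 0.01 and S100a11 was called lower at -0.39. Beyond Gm4778, Them4 and Them5, genes of the thioesterase superfamily, were called higher at 0.63 and 1.22.

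**Figure D5:**
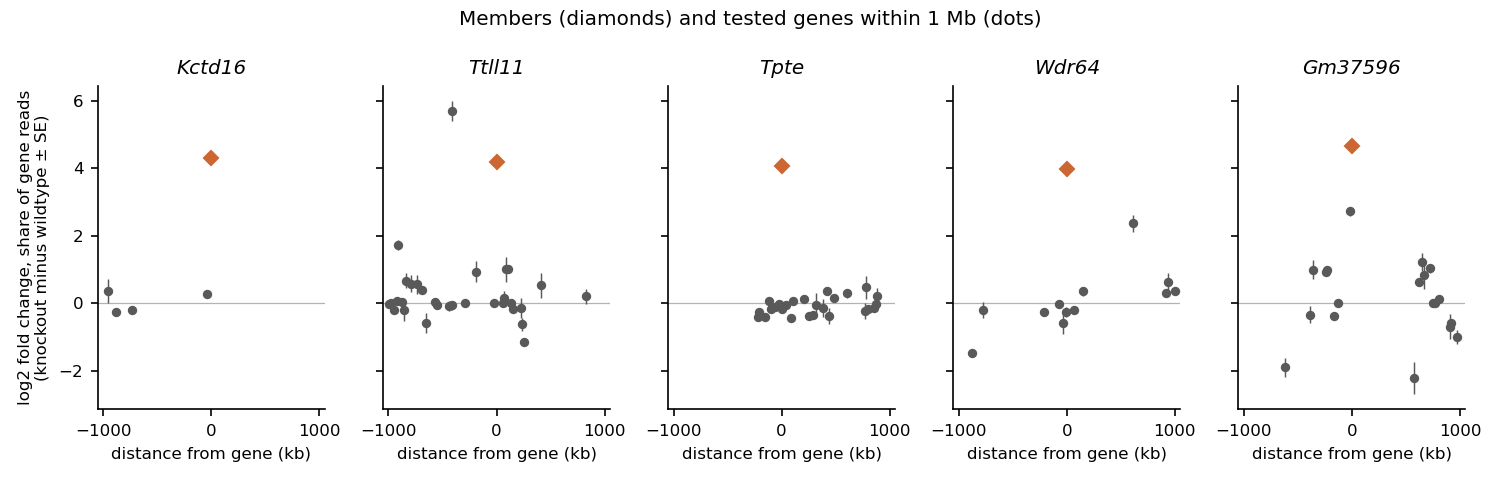
Log2 fold change of the share of gene reads in Tet2-KO over WT (± SE) for each of the 5 genes (diamonds) and the tested genes within 1 Mb (dots), against distance from the gene in kb, negative toward lower coordinates. Most dots lie near 0 outside the Gm37596 panel, where they spread from -2.22 to 2.72. The diamonds lie between 3.97 and 4.66, and the dot beside Gm37596 at 2.72 is Tdpoz1. The dot above Ttll11 is Gm13443 at 5.69.

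Genes related by function to the members, taken as lists and without the members, were divided in direction. Of 21 tested genes for KCTD proteins, 5 were higher and 4 lower as a share in Tet2-KO, with a median log2 fold change of 0.03 (24.6% and 32.0% of all genes were called higher and lower, median -0.04). The genes that moved farthest were Kctd12b at 1.70, Kctd4 at -1.22 and Kctd8 at 1.06. Kctd8, Kctd12b and Kctd12, which was called lower at -0.50 as a share but was at 0.23 per ERCC read, encode auxiliary subunits of the GABA-B receptor as Kctd16 does. Of 8 tested genes for this receptor and its effectors 4 were higher and 3 lower, with a median of 0.23. This list holds Kctd8, Kctd12b and Kctd12 again, so its counts are not separate from those of the KCTD list. Gabbr1, a subunit of the receptor itself, was called lower at -0.28 as a share but was at 0.45 per ERCC read, and Gabbr2, its partner, was called higher at 0.45 as a share. Of the potassium channels that the receptor opens, Kcnj6 was called lower at -0.95 and Kcnj3 higher at 0.81, and Kcnj9 was at 0.01 (adjusted p = 0.983, edgeR).

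Among 21 tested genes for tubulin ligase-like enzymes and the enzymes that reverse them, 7 were higher and 4 lower, with a median of 0.06. Ttll7, which like Ttll11 encodes a polyglutamylase, was at -1.01, Ttll10 at -0.93 and Agbl4, which encodes a carboxypeptidase that trims glutamate chains, at 0.77, all 3 called. Of 28 tested genes for phosphoinositide phosphatases and relatives, 10 were higher and 11 lower, with a median of -0.03. Inpp4b and Inpp5d, both inositol lipid phosphatase genes, went opposite ways at -1.58 and 0.98, and Dnajc6 was at 0.84. Of 58 tested Wdr genes 12 were higher and 19 lower, with a median of -0.04, led by Wdr86 at -1.49, Wdr31 at -0.58 and Wdr93 at -0.53, all called lower. Membership in the Wdr list rests on the name only. Per ERCC read, the genes called higher numbered 18 of the KCTD list, 6 of the receptor list, 18 of the tubulin list, 27 of the phosphatase list and 51 of the Wdr list, with 1 lower in each of the last 2 lists and none in the others, where 80.5% and 4.15% of all genes were called.

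Markers of the other cells in which these genes are known were read beside them. Of 8 markers of the male germ line, 6 were tested, with 4 called higher and 1 lower as a share, and the 8 summed to 54.5 to 63.3 CPM in WT and 99.6 to 125 in Tet2-KO. Over all tested genes 24.6% were called higher and 32.0% lower as a share. Most of the rise of the sum lay in Stk31, at 15.0 to 19.4 CPM in WT and 62.5 to 85.2 in Tet2-KO (2.06). Dazl (1.19), Mael (0.46) and Tex101 (1.80) also rose, Ddx4 fell (-0.41) and Sycp3 was not called (-0.20). The protamine and transition protein genes of late spermatids, Prm1 and Tnp1, had at most 7 and 2 reads in any library. The part of this in the values of Tpte was not tested. The 6 neuron markers summed to 23.2 to 31.8 CPM in WT and 22.1 to 27.9 in Tet2-KO, with 1 called higher and 1 lower. Tubb3 was at 0 in every library, with the same limit as given for Sox2. Markers of feeder fibroblasts summed to 2.75 to 15.7 in WT and 5.14 to 12.6 in Tet2-KO, with 2 of 4 tested called higher. Those of primitive endoderm summed to 6.36 to 13.6 and 4.80 to 10.4, with 1 of 3 tested called lower. The markers of cells that resemble the early embryo at its 2-cell stage summed to 14.0 to 26.2 in WT and 1.93 to 4.22 in Tet2-KO, with 4 of 4 tested called lower.

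The genes whose share moved most like a member across the 18 libraries were picked by the highest Pearson correlation of the log2 share, a description in which the 2 genotypes form separate clusters and carry most of the correlation. For Kctd16 they were Gm40847, Ccnb1ip1 and Serpina3m (r from 0.993 to 0.995), for Ttll11 Ddr2, Stk33 and Enah (0.995), and for Tpte Stk33, Gm13128 and D430041D05Rik (0.990). For Wdr64 they were Gm48914, Gm49692 and Ccnb1ip1 (0.993 to 0.994), and for Gm37596 Platr16, Zfp229 and Platr13 (0.990 to 0.992). None was another member. All had smaller log2 share differences than the members, from 0.83 for Enah to 2.98 for Gm48914 and 3.92 for Platr13, which had 11 to 26 reads per library in WT and 224 to 270 in Tet2-KO.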

How the data were processed

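Nascent RNA of 18 libraries was measured as raw read counts per gene. The authors made the deposited counts from reads trimmed with Trimmomatic 0.39 and aligned with HISAT2 2.2.1 to mm10 and the ERCC sequences, counted per GENCODE M19 gene with HTSeq 0.12.4. The counted feature, strand setting and overlap mode are not given in the sources used here. Reads with no feature (13.2 to 16.9% of a file), ambiguous reads (2.32 to 2.50%) and reads that were not uniquely aligned (5.24 to 5.99%) name no gene and were left out.

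Names and positions came from GENCODE M21 (54409 of 54446 identifiers matched). Genes were filtered with filterByExpr (minimum count 10), leaving 19910, which included all 5 members. One coefficient per genotype and EU time was fitted to the 18 libraries with edgeR 4.0.16 (limma 3.58.1, R 4.3.3; glmQLFit and glmQLFTest) with ERCC reads or all gene reads as library sizes, and p-values were adjusted by Benjamini-Hochberg over all tested genes, with a threshold of 0.05. They measure only the spread between these dishes. DESeq2 1.42.0, other filters and factors, and leaving out each library were alternatives. Beside the share fits, DESeq2 used its own size factors and not gene read totals, so the scale changed along with the test. Similarity between transcripts was found with BLAST 2.17.0, and likeness used log2 of CPM plus 0.5. Counts were simulated for 19910 genes with gene read totals as library sizes. The Tet2-KO against WT comparison recovered 85 of 100 genes changed 2-fold and 100 of 100 changed 4-fold. The 40 against 10 min comparison in Tet2-KO recovered 66 and 87 of 100. The fits per ERCC read, the time comparison in WT and the change of the difference were not simulated. PCR duplicates were not marked by molecular identifiers, so the limit given for a count of 0 covers counting error only.

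The members and lists were chosen with earlier results of these data known. Named beside the members were the 3 nearest tested genes on each side, the 3 most alike by correlation, the next 3 in the ranking, up to 3 genes called with the largest change per list, genes overlapping a member and cell type markers. Gabbr1, Gabbr2, Kctd12, Kcnj3, Kcnj9, Gm13443 and the Tdpoz copies were added after their values were seen.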

Additional observations from a re-analysis of the deposited data

Results flagged for a closer look

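The difference between Tet2-KO and WT changed with labelling time for a pair of the genes, by a test of the change itself (quasi-likelihood test of edgeR, Benjamini-Hochberg adjusted). For Kctd16 the log2 difference was 1.25 greater at 40 than at 10 min as a share of gene reads (adjusted p = 0.000136) and 0.90 greater per ERCC read (adjusted p = 0.00375), where the call was lost without the first WT library at 40 min (0.64, adjusted p = 0.0744). For Ttll11 the change per ERCC read was -0.59 (adjusted p = 0.0127), opposite in sign to Kctd16. It was not called as a share (-0.24, adjusted p = 0.335), nor per ERCC read without the third WT library at 10 min (-0.43, adjusted p = 0.111) or the second at 40 min (-0.51, adjusted p = 0.0774). The medians over all tested genes were 0.06 as a share and -0.29 per ERCC read. The cause was not tested.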

How the results depend on the processing

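Of 230 alternative values of the log2 difference between Tet2-KO and WT of the 5 genes, 229 moved by less than 1 SD between replicates, the exception being Gm37596 as a share. The choice of the genes fixes their sign, which is no sign of stability. Leaving out each library in turn, the members called ranged from 1 to 2 for the share from 10 to 40 min in Tet2-KO, from 1 to 3 in WT, from 4 to 5 per ERCC read in WT, from 1 to 3 for the change of the difference per ERCC read and from 1 to 2 as a share. The last count was 2 with DESeq2 and with no filter on low counts. Neighbours called higher ranged from 6 to 8 and lower from 11 to 12 as a share, and relatives from 34 to 37 and from 37 to 43. All tested genes within 1 Mb gave 26 higher and 25 lower. The median ratio of slopes over the 5 genes, 41.2, ranged from 26.8 to 54.8. This median includes Gm37596, whose own ratio is too uncertain to give. Its low end came without the third WT library at 40 min, where the WT slope of Gm37596 was -0.00055 and its ratio therefore negative, so the range partly reflects that change of sign.

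Some values changed sign, all of them uncalled except the WT time change of Gm37596 per ERCC read. With TMM factors and with DESeq2, Ggta1 was at 0.0318 and 0.0269, Dab2ip at 0.0322 and 0.0273, Thsd1 at 0.0212 and 0.0161, and Fh1 at 0.0183 and 0.0134. Leaving out libraries, Ggta1 ranged from -0.0232 to 0.0050, Ndufa8 from -0.0242 to 0.0742, Thsd1 from -0.0784 to 0.0334, Fh1 from -0.0606 to 0.0035 and S100a10 from -0.0386 to 0.0820. Tpte ranged from -0.0391 to 0.0616 for the time change in Tet2-KO, from -0.46 to 0.20 in WT, and for the change of the difference from -0.52 to 0.22 per ERCC read and from -0.18 to 0.48 as a share. The WT slope of Gm37596 ranged from -0.00055 to 0.0015, and its WT time change per ERCC read from -0.84 to 1.63. The cause was not tested.

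The counts gave no sign that replicate numbers pair the dishes, though this cannot show how the dishes were handled. Over 45 pairs of same-numbered libraries the median correlation of deviations was -5.6e-06 (from -0.09 to 0.09), and 5 of 18 libraries correlated best with their own number. With the replicate number as a block, the members called stayed at 2 in Tet2-KO and 1 in WT for the share from 10 to 40 min, relatives called higher came to 37 in place of 36, and no value of a member or neighbour crossed the threshold. The wildtype levels, 0 to 163 reads per library, limit the precision of every ratio.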
